A study of Danio rerio with 24 samples.

Results

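Neurotransmitter receptor and ligand-gated channel genes were examined in adult zebrafish, in brain and in whole kidney marrow. The members were all gene symbols of the count files that begin with the stems of acid-sensing ion channels (asic), muscarinic (chrm) and nicotinic (chrn) acetylcholine receptors, GABA (gabr, gabb), glutamate (gria, grik, grid, grin, grm), glycine (glra, glrb), serotonin (htr), dopamine (drd), adrenergic (adra, adrb) and P2X (p2rx) receptors. This choice matched gene names, was made with earlier results of these data known, and took 97 of the 14781 genes. The AMPA, kainate and delta glutamate class holds 11 of them, NMDA receptors 3, metabotropic glutamate receptors 7, GABA-A subunits 8, GABA-B subunits 1, glycine subunits 7, nicotinic subunits 14, muscarinic receptors 3, serotonin receptors 8, dopamine receptors 9, adrenoceptors 11, P2X receptors 9 and acid-sensing channels 6. One of the 11, grid2ipb, matches the stem but encodes a synaptic scaffold and no receptor, and chrng had 0 reads in all libraries.

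The fish were males of the EK strain, 4 to 12 months old. Fish were kept in tamoxifen (0.5 to 0.7 µM) for 17 h, and organs were collected 7 days later. In the ablation experiment, wild type fish with cardiomyocyte ablation were set against uninjured wild type fish, with 2 brain and 2 whole kidney marrow RNA-seq libraries for each state. In the cebpd experiment, all fish had cardiomyocyte ablation, and 3 brain libraries of wild type fish were set against 3 of cebpd homozygous knockout fish. The labels name neither the transgene that makes cardiomyocytes sensitive to tamoxifen nor the cebpd allele, do not say whether the uninjured fish received the bath, and give no source animal for the replicates, so p-values measure only the spread between these samples.

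Fast transmission in the brain runs through ligand-gated channels. AMPA, kainate and NMDA receptors open to glutamate and excite the cell, while GABA-A and glycine receptors pass chloride and mostly inhibit it. Nicotinic receptors open to acetylcholine, P2X receptors to extracellular ATP, and acid-sensing channels pass sodium when the fluid outside the cell turns acid. Metabotropic glutamate, GABA-B, muscarinic, serotonin and dopamine receptors and adrenoceptors of the kinds listed here act through G proteins instead. Kidney marrow is the blood-forming tissue of adult fish and serves as a reference without central synapses.

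Depth differed between the experiments, with 14364306 to 20469655 reads in genes for each library of the ablation experiment, and 4377028 to 6280007 for those of the cebpd experiment. The members took 0.704% to 0.842% of the gene reads of the brain libraries and 0.0215% to 0.0251% of those of kidney marrow. Levels are given as CPM, counts divided by library sizes that were scaled by TMM within each comparison, so a group that serves in several comparisons has slightly different levels in each. CPM is not divided by gene length, so levels are compared between libraries and not between genes. In the check of the labels, cebpd stood at 1.30, 3.05 and 0.906 CPM in the mutant libraries and at 49.4, 78.4 and 41.7 CPM in the wild type ones (log2 fold change -4.96, SE 0.33, edgeR adjusted p = 1.32e-05). In the ablation experiment cebpd was higher in ablated than in uninjured brain (log2 fold change 1.05, SE 0.13, edgeR adjusted p = 0.00596). This call was lost in the edgeR fit over the 8 libraries of that experiment, where 0 genes were called higher in brain.

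Uninjured brain was first set against uninjured kidney marrow to show where the genes are read out. Of 90 members tested, 75 were higher in brain and 9 were higher in kidney marrow, while over all 12936 genes tested the shares were 38.9% and 39.2% (edgeR quasi-likelihood test, Benjamini-Hochberg adjusted p under 0.05). The median log2 fold change of the members was 5.05, or 4.88 when the 6 genes with no reads in 1 tissue were set to their bound, against -0.002 over all genes tested. At 1 CPM or more stood 80 members in brain and 36 in marrow, and at 10 CPM or more 54 and 8. These counts and the marker sums of this paragraph use the scale of each tissue's own ablation comparison, not that of the tissue comparison. In these bulk samples, fewer cells of a type and less RNA per cell cannot be told apart. In uninjured marrow, nephron markers summed to 16898 to 18074 CPM (aqp8b at 0) and neutrophil markers to 5850 to 5947 CPM. Of 14 tested nephron markers, 13 were called higher in marrow than in brain and 1 lower. Striated muscle markers summed to 184 to 310 CPM in marrow and 36.1 to 68.8 CPM in uninjured brain. Of 15 tested, 10 were called higher in marrow and 1 lower. Which cells carry the members' reads was not tested.

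Every tested class of glutamate, GABA, glycine, dopamine, serotonin and muscarinic receptor leaned to the brain. All 11 genes of the AMPA, kainate and delta class, the 3 NMDA genes, 7 of 7 glycine subunits, 9 of 9 dopamine receptors, 7 of 7 tested serotonin receptors, the 3 muscarinic receptors and the 6 acid-sensing channels were higher in brain. Of these calls, those of the dopamine receptor gene drd7 and the serotonin receptor gene htr5a were lost without either brain library. grin1a and its paralogue grin1b encode the subunit that every NMDA receptor needs, and grin1a took the most reads of its class in both tissues. It stood at 1129 and 1101 CPM in the brain libraries and at 8.71 and 11.7 CPM in the marrow libraries (log2 fold change 6.77, SE 0.17, adjusted p = 1.43e-06). The AMPA subunit gene gria2b had 838 and 830 CPM in brain and 2.04 and 1.64 CPM in marrow (8.82, SE 0.14). The GABA-A beta subunit gene gabrb2 had 434 and 426 CPM in brain and 1.19 and 1.13 CPM in marrow (8.52, SE 0.12). For these 3 genes each brain library lay far above each marrow library.

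The leading genes of the other classes in brain, by reads, behaved alike. They were glrbb, the glycine receptor beta subunit (7.55, SE 0.18), grm3, a metabotropic receptor coupled to inhibitory G proteins (8.32, SE 0.23), gabbr2, a subunit of the GABA-B receptor (5.81, SE 0.13), asic1a, a proton-gated channel (7.07, SE 0.15), adra2c, an alpha-adrenoceptor that inhibits transmitter release (5.89, SE 0.20), chrnb3a, a nicotinic beta subunit (5.66, SE 0.24), drd4a, a dopamine receptor (5.03, SE 0.18), and chrm2a, a muscarinic receptor coupled to inhibitory G proteins (5.996, SE 0.27). All of these are log2 fold changes of brain over marrow with adjusted p under 0.05. The serotonin receptor gene htr1aa had 443 and 381 reads in the brain libraries and 0 in marrow, which makes it at least 142-fold higher in brain against a floor of 3 reads per library. By the same floor the dopamine receptor gene drd2a was at least 98.1-fold higher, the muscarinic gene chrm5a at least 20.8-fold, the GABA-A subunit gene gabra6a at least 5.60-fold and the serotonin receptor gene htr5a at least 4.36-fold. gabra6a and htr5a rest on 32 and 25 reads over the brain libraries, and the call of gabra6a was lost without replicate 2 of brain.

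P2X receptors and adrenoceptors divided between the tissues. Of 11 adrenoceptors tested, 6 were higher in brain and 4 in marrow, and of 6 P2X genes, 1 was higher in brain and 3 in marrow. p2rx4a, an ATP-gated channel, stood at 0.794 and 0.672 CPM in brain and at 27.7 and 33.8 CPM in marrow (log2 fold change -5.37, SE 0.22, adjusted p = 5.50e-06). p2rx1 (-3.61, SE 0.42), known in mammals from platelets and smooth muscle, and p2rx3a (-1.99, SE 0.53), known in mammals from sensory neurons, were also higher in marrow, but on 3 to 8 reads per brain library. p2rx7, an ATP-gated channel of macrophages and microglia, had 12.0 and 10.6 CPM in brain and 6.45 and 8.22 CPM in marrow (0.62, SE 0.19, adjusted p = 0.0258). This call was lost with DESeq2 (adjusted p = 0.0505) and without either brain library.

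Among the adrenoceptors, adrb3a had 2.89 and 2.69 CPM in brain and 13.9 and 12.1 CPM in marrow (-2.22, SE 0.19). The beta-adrenoceptor gene adrb2b stood at 2.95 and 1.96 CPM in brain and at 37.3 and 15.2 CPM in marrow (-3.41, SE 0.51). The alpha-adrenoceptor gene adra1bb had 2.38 and 2.81 CPM in brain and 33.3 and 9.52 CPM in marrow (-3.04, SE 0.64, adjusted p = 0.00596), so the marrow libraries differed from each other by more than the brain libraries for both. Without replicate 1 of uninjured brain, the adjusted p of adra1bb was 0.0504. adrb3b had 0 reads in brain and 86 and 115 in marrow, at least 32.2-fold higher in marrow. Outside these families, chrna1, the alpha subunit of the muscle nicotinic receptor (-1.78, SE 0.40), and gabrr3a, a GABA-A rho subunit (13 and 27 reads in marrow against 0 and 3 in brain), were higher in marrow. Each of these 2 calls was lost without 1 brain library, with adjusted p = 0.0824 for chrna1 without replicate 2 and 0.0820 for gabrr3a without replicate 1. That of p2rx3a was lost without replicate 2 of brain (adjusted p = 0.121) and with DESeq2 (0.0542).

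Members with most reads of their class in marrow were, beside those already given, asic1b with 7.58 and 9.41 CPM, grm8b with 16.1 and 16.5 CPM, chrna5 with 2.94 and 3.57 CPM, htr5al with 4.01 and 4.37 CPM and grid2ipb with 14.3 and 20.4 CPM. All 5 were still higher in brain, asic1b by 2.47 (SE 0.14), grm8b, a metabotropic glutamate receptor, by 1.18 (SE 0.11), chrna5 by 2.37 (SE 0.18), htr5al by 1.35 (SE 0.17) and grid2ipb by 3.69 (SE 0.18) on the log2 scale.

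**Figure D1:**
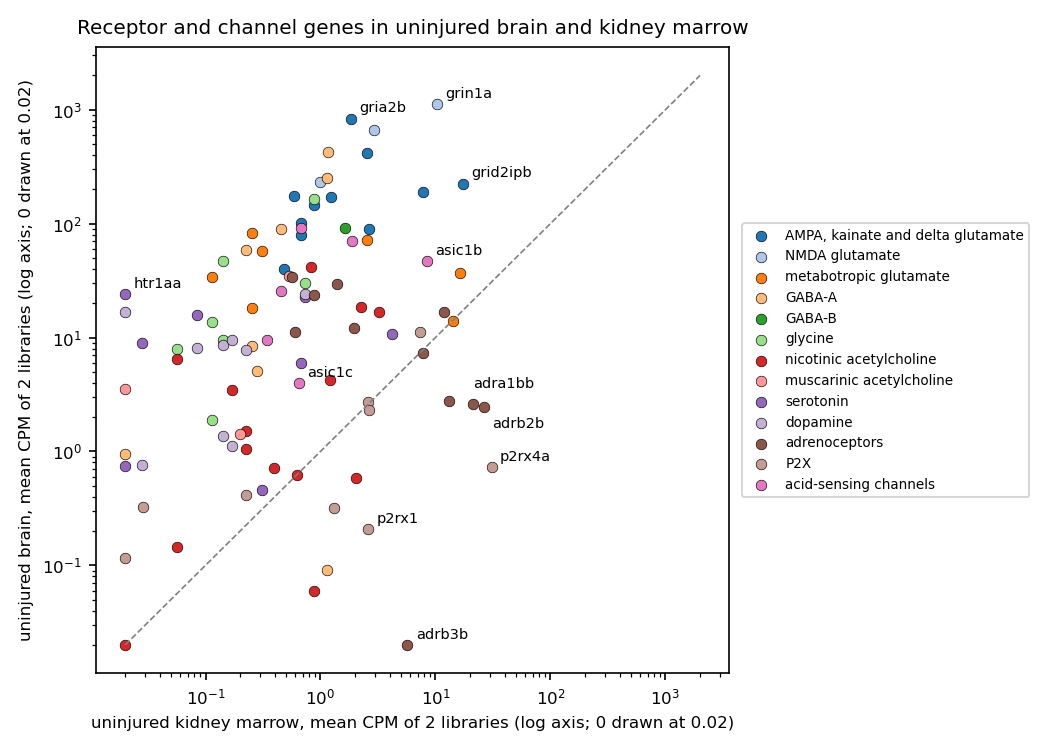
Mean CPM of each member in uninjured brain (vertical) and uninjured kidney marrow (horizontal), both on log axes, with 2 libraries per tissue, colours for the classes and a dashed line of equal level. Most members lie above the line, while p2rx4a, p2rx1, adrb2b, adra1bb and adrb3b lie below it.

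The brain comparison asks which members respond in the brain to an injury of the heart. None of the 86 members tested passed the threshold in either direction with edgeR. Over all 12371 genes tested with edgeR, 0.283% were called higher and 0.17% lower. DESeq2 gave an adjusted p to 61 members and called none of them, against 37 genes higher and 28 lower of 9133. At an unadjusted p under 0.05 stood 4 members, 4.65% of those tested, against 6.85% of all genes. The ablated and uninjured libraries did not overlap for 29 of 86 members (33.7%), against 36.1% of all genes. The median log2 fold change was -0.04, with 28 members above 0 and 58 below. Over all genes the median was -0.001, with 6136 above 0 and 6235 below. The members' median moved when single libraries were left out, which left 1 library in a group. It was -0.03 without ablated replicate 1, -0.05 without ablated replicate 2, 0.004 without uninjured replicate 1 and -0.09 without uninjured replicate 2.

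The members with the smallest p were adra1bb and grin1a. adra1bb had 4.14 and 4.24 CPM in the ablated libraries and 2.63 and 3.10 CPM in the uninjured ones (log2 fold change 0.55, SE 0.22, adjusted p = 0.619). grin1a stood at 1337 and 1321 CPM after ablation and at 1246 and 1215 CPM without it (0.11, SE 0.04, adjusted p = 0.622). In both genes the libraries of the groups did not overlap. Next among the genes with a positive sign came chrna1 on 14 and 20 reads against 13 and 7 (0.67, SE 0.42), chrna5, an accessory nicotinic subunit (0.16, SE 0.10), and htr5a on 20 and 20 reads against 11 and 14 (0.59, SE 0.38).

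On the negative side, gabbr2 had 96.2 and 88.6 CPM after ablation and 101 and 103 CPM in uninjured brain (-0.14, SE 0.06, adjusted p = 0.727). grm4, a metabotropic glutamate receptor, had 75.5 and 71.5 CPM against 79.8 and 80.3 CPM (-0.12, SE 0.06, adjusted p = 0.779). chrm2a (-0.19, SE 0.10) and chrna10a, on 7 and 14 reads against 22 and 14 (-0.87, SE 0.42), also stood below 0. gabbr2 and grm4 did not overlap between the groups, while chrm2a did.

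By class, the medians ran from -0.14 for the single GABA-B gene to 0.07 for the adrenoceptors. All 7 tested GABA-A subunits were below 0, with a median of -0.10, and none passed the threshold. The summed GABA-A level was 920 and 882 CPM after ablation and 953 and 908 CPM in uninjured brain. The AMPA, kainate and delta genes spanned -0.08 to 0.05. The 95% interval of the log2 fold change lay within ±0.5 for 60 of the 86 members and within ±1 for 77, so changes beyond these sizes fall outside the intervals of those genes. The other 11 members had at most 12 reads in any brain library and were not tested.

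Markers of other cells moved beside these values. Of 16 tested neuron markers, 4 were above 0, with a summed level of 12674 to 13049 CPM after ablation and 13445 to 13455 CPM in uninjured brain. Of 11 myelin markers, 2 were above 0 (3147 to 3202 against 3529 to 3551 CPM), and of 24 retina and pineal markers, 1 was (123 to 272 against 231 to 383 CPM). Of the neuron markers gap43 was at 0 in all brain libraries, no myelin marker was at 0, and opn1mw1 was at 0 in the ablated libraries. Of 13 endothelial and mural markers, 11 were above 0 (497 to 521 against 472 to 479 CPM, with pdgfrb at 0), and cldn5b (1.29, adjusted p = 0.00596) and fli1a (0.56, adjusted p = 0.0235) were called higher. Called lower were the radial glia marker cyp19a1b (-0.35, adjusted p = 0.0418), in a list with 5 of 12 above 0 and 8928 to 9365 against 9185 to 9803 CPM, and the erythroid marker hbaa1 (-0.59, adjusted p = 0.0321), in a list with 3 of 5 above 0 and 172 to 210.2 against 210.7 to 237.5 CPM. The nephron marker podxl was also called lower (-0.36, adjusted p = 0.0418), in a list with 6 of 14 above 0 and 267 to 287 against 304 to 316 CPM. Neutrophil markers had 6 of 8 above 0 (99.9 to 116 against 77.3 to 92.98 CPM). The part of these in the members' values was not tested.

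**Figure D2:**
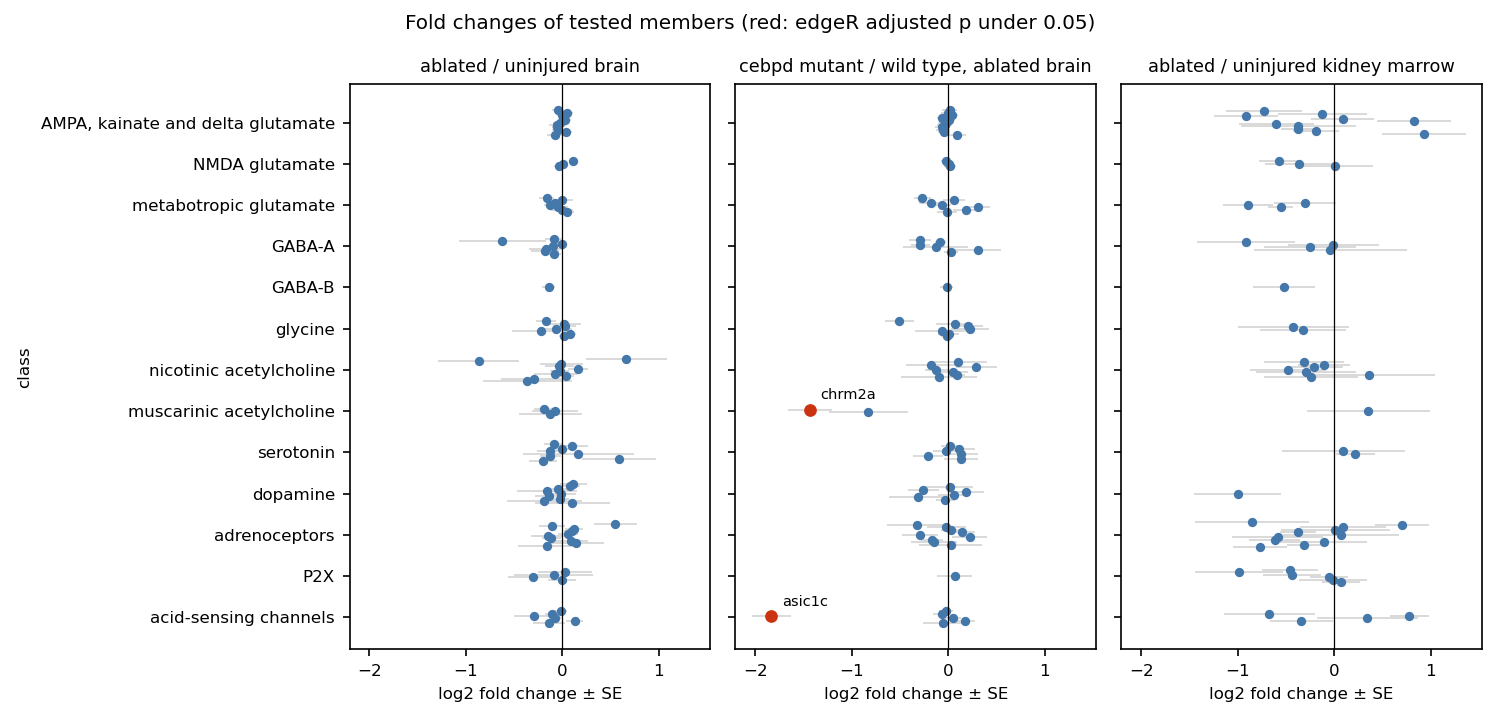
Log2 fold change with SE of each tested member, by class, in the 3 comparisons (brain ablation, cebpd genotype in ablated brain, kidney marrow ablation). The red points, asic1c and chrm2a in the cebpd comparison, are the members past the threshold, and the marrow values spread most widely.

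The cebpd comparison asks which members differ between cebpd mutant and wild type brain after ablation. asic1c and chrm2a were lower in the mutant, and no member was higher. Of 72 members tested, 2 (2.78%) were thus called lower, against 0.0991% of all 11103 genes tested, and 0.036% of all genes were called higher. The members were chosen with earlier results of these data known, so these shares do not test the set. DESeq2 called asic1c and chrm2a as well, of 86 members with an adjusted p, against 11 genes higher and 33 lower of 12237. Without wild type replicate 3 edgeR called 4 members lower, these 2 among them, and 77 of 11210 genes lower. At an unadjusted p under 0.05 stood 7 members (9.72%), against 8.5% of all genes, and the libraries of the groups did not overlap for 5 members (6.94%), against 13.7%. The median of the members was -0.02, with 33 above 0 and 39 below, against -0.001 over all genes.

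asic1c encodes a subunit of the proton-gated sodium channels. It had 66, 94 and 86 reads in the wild type libraries and 23, 27 and 26 in the mutant ones. On the CPM scale this was 15.7, 19.5 and 13.7 against 4.27, 4.57 and 4.71. Every wild type library stood well above every mutant library, and the mutant libraries lay close together. The log2 fold change was -1.83 (SE 0.20, 95% interval -2.27 to -1.40, adjusted p = 0.00170), and it passed the threshold without any 1 of the 6 libraries, with adjusted p from 0.00125 to 0.0181.

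The 5 other acid-sensing channel genes did not pass. asic1a had 112, 110 and 101 CPM in wild type and 109, 99.1 and 110 CPM in mutant brain (-0.02, 95% interval -0.18 to 0.14). asic1b had 62.9, 67.1 and 61.9 CPM against 64.9, 61.8 and 56.0 CPM (-0.07, interval -0.25 to 0.12). asic2 (0.05, interval -0.12 to 0.23) and asic4b (-0.06, interval -0.49 to 0.38) changed sign when single libraries were left out, as did asic1a. asic4a had 28.5, 28.1 and 27.8 CPM against 31.9, 29.99 and 33.1 CPM, groups that do not overlap (0.17, 95% interval -0.05 to 0.39, adjusted p = 0.717). The interval of asic1c does not overlap those of asic1a, asic1b, asic2, asic4a and asic4b, and the difference between the genes was not tested.

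chrm2a encodes a muscarinic acetylcholine receptor that, in mammals, slows the heart and damps transmitter release. It had 128, 111 and 97 reads in wild type and 47, 51 and 42 in mutant brain, or 30.4, 23.0 and 15.4 CPM against 8.72, 8.64 and 7.61. Every wild type library was above every mutant one, but the wild type libraries differed widely from each other while the mutant ones lay close together. The log2 fold change was -1.43 (SE 0.23, 95% interval -1.92 to -0.94, adjusted p = 0.0229). The call was kept without wild type replicate 3 (-1.67, adjusted p = 0.00125), where 77 genes were called lower in place of 11. It was lost without wild type replicate 1 (-1.19, adjusted p = 0.0685), wild type replicate 2 (0.0792) or mutant replicate 1 (0.0621), 2 (0.155) or 3 (0.136). Of the other muscarinic genes, chrm5a had 15, 8 and 21 reads against 9, 13 and 5 (-0.83, SE 0.41, adjusted p = 0.626), with groups that overlap. chrm5b had 8, 5 and 15 reads against 8, 21 and 8 and was not tested.

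The inhibitory channel subunits came next. glra1 encodes one of the glycine receptor alpha subunits. It had 27.3, 24.4 and 20.7 CPM in wild type and 18.9, 14.6 and 17.0 CPM in mutant brain (-0.51, SE 0.15, adjusted p = 0.297), with no overlap. glra3 went the other way, with 11.9, 13.2 and 15.1 against 15.8, 14.6 and 16.7 CPM (0.21, SE 0.15) and an overlap. The GABA-A beta subunit gene gabrb2 had 594, 591 and 584 CPM against 539, 545 and 587 CPM (-0.08, SE 0.06). The summed level of the 8 GABA-A subunits was 1281, 1260 and 1110 CPM in wild type and 1071, 1087 and 1147 CPM in mutant brain.

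Among the metabotropic glutamate receptors, grm6a, whose mammalian counterpart is the glutamate receptor of retinal ON bipolar cells, had 33.0, 38.5 and 27.8 CPM in wild type and 38.4, 41.9 and 42.0 CPM in mutant brain (0.31, SE 0.12, adjusted p = 0.496). Its paralogue grm6b had a log2 fold change of 0.19 (SE 0.14) and the nicotinic subunit gene chrna4b one of 0.29 (SE 0.21). No ionotropic glutamate receptor gene passed the threshold. The 11 AMPA, kainate and delta genes spanned -0.06 to 0.09 and the 3 NMDA genes -0.02 to 0.02. Intervals lay within ±0.5 for 44 of 72 members and within ±1 for 68. The other 25 members had at most 21 reads in any library and were not tested.

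**Figure D3:**
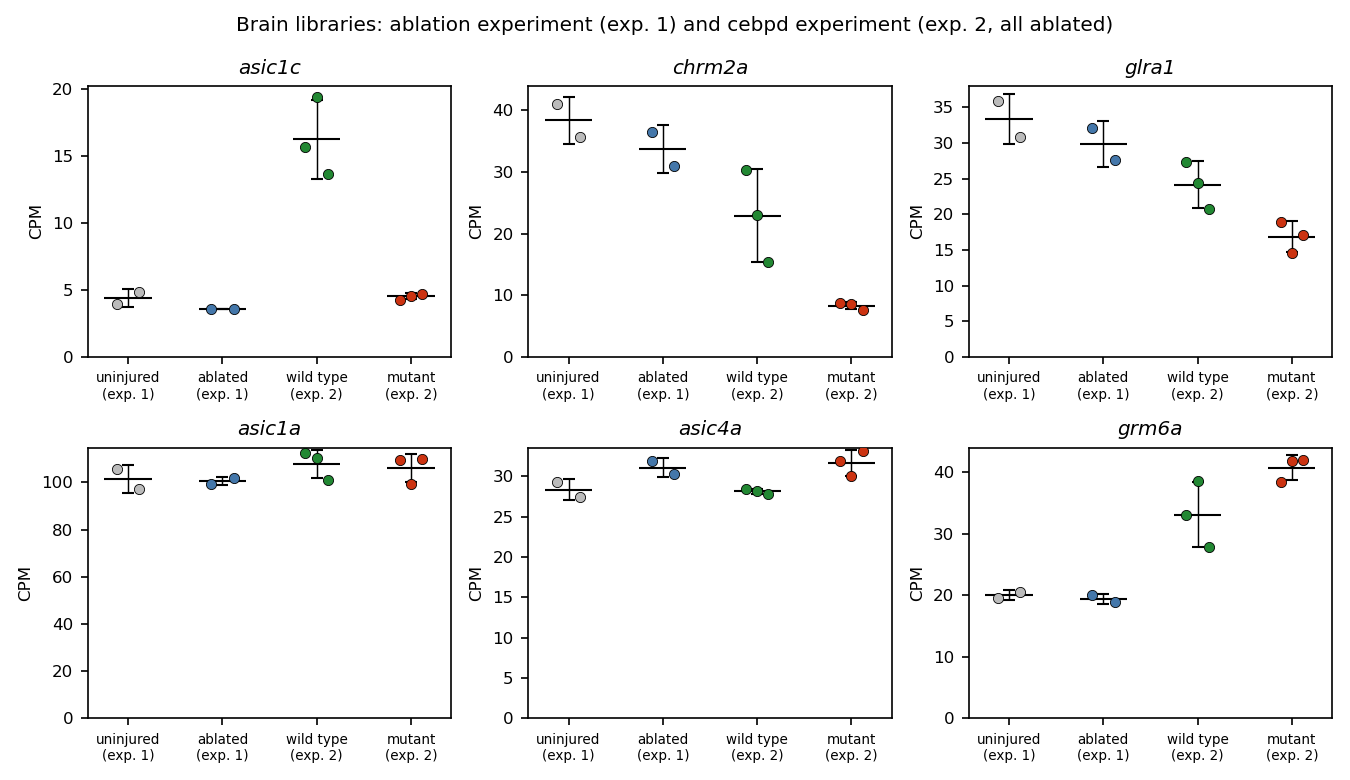
CPM in each brain library for 6 members, with the mean (line) and SD (bar), for the ablation experiment (exp. 1, n = 2 per group) and the cebpd experiment (exp. 2, n = 3 per group), which were scaled separately. The wild type libraries of exp. 2 stand above the mutant libraries for asic1c, chrm2a and glra1, below them for asic4a, and overlap them for asic1a and grm6a.

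The 2 called genes stood differently in the ablation experiment, which was scaled apart from the cebpd experiment. asic1c had 3.94 and 4.86 CPM in uninjured and 3.58 and 3.60 CPM in ablated wild type brain, levels near those of the cebpd mutant and below those of the wild type group there. chrm2a had 41.1 and 35.6 CPM in uninjured and 36.5 and 31.0 CPM in ablated brain, above both groups of the cebpd experiment. cebpd itself had 63.4 and 47.3 CPM in the ablated brain of the ablation experiment, within the 41.7 to 78.4 CPM of the wild type group. Of the 15 genes called in the cebpd comparison, the ablated brain of the ablation experiment lay nearer to the mutant mean for 6, asic1c among them, and nearer to the wild type mean for 9, chrm2a among them. A pseudocount of 0.1 CPM was used. The 9 include cebpd, the knocked-out gene itself, whose place there was given by the genotype. The groups with the same label in the 2 experiments were not tested against each other, and experiment, depth and animals cannot be told apart there.

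asic1c lies on chromosome 24, as does cebpd, with 14 annotated genes between them in the order of the GRCz12tu annotation. That build differs from the danRer10 build of the files and was used for gene order only, with 97 of 97 members and 98.6% of all symbols matched. Within 20 genes on each side of cebpd, 17 other genes were tested, 4 had an unadjusted p under 0.05, and 2 passed the threshold, asic1c on one side and rbbp8 on the other (1.24, adjusted p = 0.00862). rbbp8, which encodes a DNA end resection factor, also has 14 genes between it and cebpd. The other 15 spanned -0.64 (cdk5) to 0.74 (mcm4). vim, a radial glia gene with 55 genes between it and cebpd, was also lower (-0.65, adjusted p = 0.00582). Chromosome 24 held 306 of the 11103 genes tested, 2.76%, and 4 of the 15 genes called, 3 of them other than cebpd. Of the other members, chrnd and drd3 are on the same chromosome, with 210 and 352 genes between them and cebpd. drd3 stood at 0.06 (SE 0.17), and chrnd had too few reads to be tested. Whether linked sequence differs between the wild type and mutant fish was not tested. chrm2a is not on chromosome 24.

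**Figure D4:**
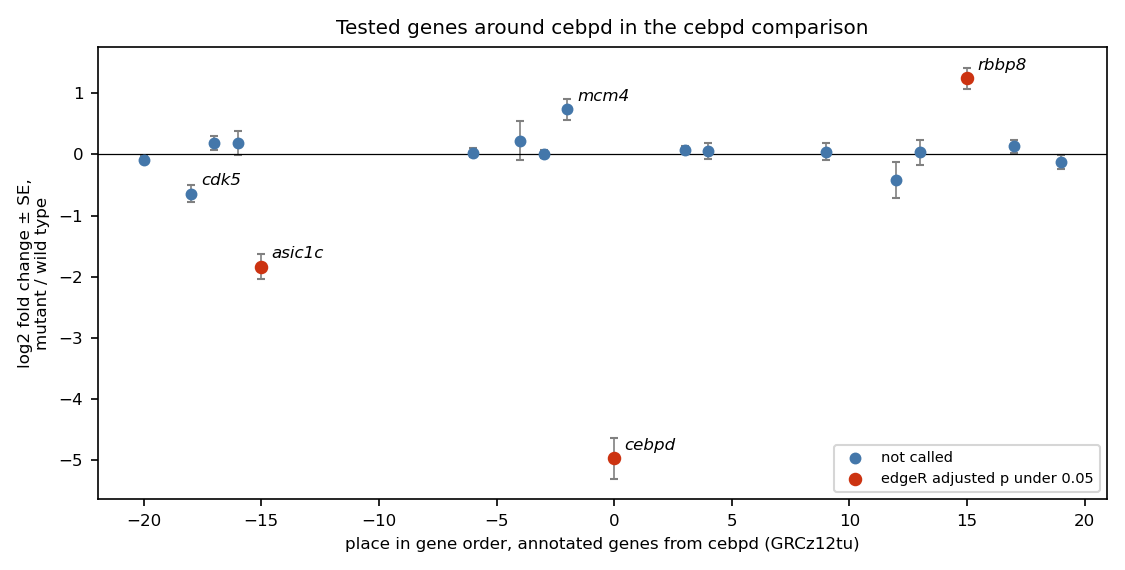
Log2 fold change with SE, mutant over wild type, of the tested genes within 20 annotated genes of cebpd, in the gene order of GRCz12tu. cebpd, asic1c at 15 places on one side and rbbp8 at 15 places on the other passed the threshold (red), and most others lie near 0.

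Markers of the eye and pineal moved with genotype. All 21 tested retina and pineal markers were above 0, with a median of 1.25 and 1 call, saga (2.14, adjusted p = 0.00321). Their summed level was 32.8, 297 and 319 CPM in wild type and 554, 693 and 403 CPM in mutant brain, with opn1mw1 at 0 in both groups and opn1sw1 at 0 in wild type. Lens markers summed to 11.2 to 13.04 CPM in wild type and to 20.03 to 22.1 CPM in mutant brain, with 2 of 3 tested above 0, crybb1l3 called higher (3.45, adjusted p = 0.00321), and cryaa, cryba2b, crygm2d1 and crygm3 at 0 in both groups. Without wild type replicate 1, which had least retinal signal, the log2 fold change of asic1c was -1.85 (adjusted p = 0.0113), and the call of chrm2a was lost. The wild type libraries left in that fit, at 297 and 319 CPM, still had less retinal signal than every mutant library, so this omission does not separate genotype from retinal signal. Neuron markers summed to 15239 to 15735 CPM in wild type and 15147 to 15188 CPM in mutant brain, with 6 of 15 tested above 0, and of 11 myelin markers none was above 0 (3235 to 3336 against 2720 to 3077 CPM). Of 9 microglia and macrophage markers, 1 was above 0, with a median of -0.22 (1129 to 1258 against 1004 to 1140 CPM). Erythroid markers had 1 of 5 above 0 (501 to 607 against 381 to 454 CPM) and neutrophil markers 1 of 4 (74.6 to 94.4 against 61.2 to 67.1 CPM), both without overlap, with npsn at 0 in both groups and lect2l at 0 in the mutant. Radial glia markers had 5 of 12 above 0 (7115 to 7918 against 6636 to 7148 CPM). The part of these cells and tissues in the values of the members, asic1c and chrm2a among them, was not tested.

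Kidney marrow was the reference for the ablation. None of the 55 members tested passed the threshold, and neither did any of the 12160 genes tested (0% higher and 0% lower with edgeR). DESeq2 called 434 genes higher and 170 lower there, of 10439 with an adjusted p. It gave an adjusted p to only 16 members and called none of them. At an unadjusted p under 0.05 stood 6 members (10.9%), against 19.6% of all genes, and the groups did not overlap for 26 members (47.3%), against 52.1%. The median was -0.30, with 15 members above 0 and 40 below, against -0.009 over all genes. Summed over the members, the level was 210.4 and 211.3 CPM in ablated marrow, below the 261.8 and 243.1 CPM of uninjured marrow. Of these sums, adrenoceptors made up 67.8 and 66.0 CPM in ablated marrow. In uninjured marrow they made up 108 CPM in replicate 1 and 65.5 CPM in replicate 2. The spread between replicates was wider than in brain, with a biological coefficient of variation of 16.5% against 5.56%.

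asic1b, a proton-gated channel gene, had 15.6 and 12.2 CPM in ablated marrow and 7.19 and 8.98 CPM in uninjured marrow (log2 fold change 0.78, SE 0.20, adjusted p = 0.143). grm8b had 10.6 and 10.6 CPM against 15.3 and 15.7 CPM (-0.55, SE 0.13, adjusted p = 0.128). grm6b had 8.30 and 6.23 CPM against 10.9 and 16.0 CPM (-0.89, SE 0.26, adjusted p = 0.167). In these 3 genes the groups did not overlap, and the replicates of grm6b differed most.

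gria2a, an AMPA subunit gene, had 24 and 23 reads against 40 and 49 (-0.92, SE 0.33, adjusted p = 0.226). grin1a had 6.17 and 6.94 CPM against 8.27 and 11.2 CPM (-0.57, SE 0.21, adjusted p = 0.240). adrb3b had 2.69 and 3.64 CPM against 4.62 and 6.22 CPM (-0.77, SE 0.28, adjusted p = 0.224). These 3 did not overlap either and stood lower after ablation. On the positive side were adra2a, an inhibitory alpha-adrenoceptor (0.70, SE 0.28), gria3a on 29 and 26 reads against 15 and 16 (0.83, SE 0.38), the kainate subunit gene grik5 on 14 and 19 reads against 10 and 7 (0.93, SE 0.44) and htr5al (0.22, SE 0.20).

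When all 8 libraries of the ablation experiment shared 1 estimate of the spread, asic1b was called higher (0.77, adjusted p = 0.0207). In that fit 5 members were called lower, gria2a, grin1a, grm6b and grm8b among them, and over all 13077 genes 912 were called higher and 440 lower. Intervals of the marrow fit lay within ±0.5 for 0 of 55 members and within ±1 for 13, and 42 members had at most 16 reads in any library and were not tested. Neuron markers in marrow summed to 112 to 119 CPM after ablation and 148 to 149 CPM without, with 1 of 16 above 0, a median of -0.39 and gap43 at 0. Nephron markers summed to 12845 to 13810 CPM after ablation and 16898 to 18074 CPM without, with 4 of 13 above 0 and aqp8b at 0 in uninjured marrow. Lymphocyte markers had 1 of 9 above 0 (104 to 115 against 118 to 131 CPM), and microglia and macrophage markers 5 of 11 (2237 to 2571 against 2691 to 2847 CPM). Their part in the members' values was not tested.

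**Figure D5:**
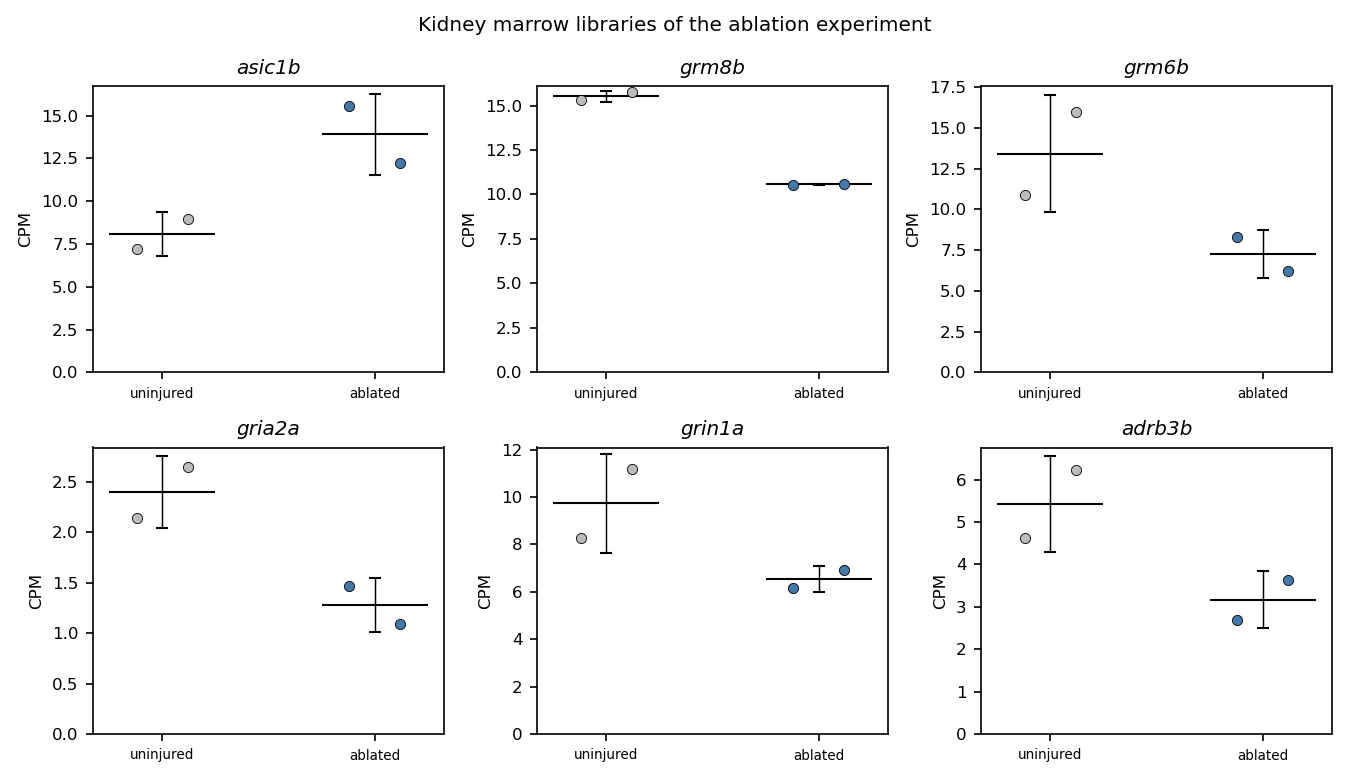
CPM in each kidney marrow library for 6 members with the smallest p, with the mean (line) and SD (bar), n = 2 per group. Ablated libraries lie above uninjured ones for asic1b and below them for grm8b, grm6b, gria2a, grin1a and adrb3b, and none passed the threshold in this comparison.

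Whether ablation acted differently on the members in brain and marrow was tested as an interaction. None of 92 members passed with edgeR, against 0.26% of all 13077 genes, and 13 members had an unadjusted p under 0.05 (14.1%), against 16% of all genes. DESeq2 gave an adjusted p to 39 members and called gria2a (0.98, adjusted p = 0.0465) and grin1a (0.73, adjusted p = 0.0324). Over all 8416 genes with an adjusted p, it called 99 with a positive difference and 165 with a negative one. With edgeR the brain change exceeded the marrow change by 0.61 for grm8b (SE 0.13, adjusted p = 0.0911), by 0.93 for gria2a (SE 0.21, adjusted p = 0.102), by 0.68 for grin1a (SE 0.19, adjusted p = 0.143) and by 0.89 for grm6b (SE 0.29, adjusted p = 0.200). The difference had the opposite sign for asic1b (-0.88, SE 0.20, adjusted p = 0.104), gria3a (-0.77, SE 0.25), grik5 (-1.004, SE 0.28) and adra2a (-0.81, SE 0.28). Without uninjured marrow replicate 1, which left 1 library in that group, the difference of grin1a was 0.93. adrb3b had 3 and 3 reads in ablated and 0 and 0 in uninjured brain, and htr1aa had 2 and 1 reads in ablated and 0 and 0 in uninjured marrow, so no fold is given for them.

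Genes that work with the receptors were examined as 2 lists. The synaptic scaffolds and receptor auxiliary proteins had 37 of 80 entries in the files, and the transmitter synthesis, release and uptake genes 49 of 60. No gene of either list passed the threshold in the brain, cebpd, marrow or interaction tests with edgeR. Of the scaffold genes, 13 of 35 tested were above 0 in the brain comparison (median -0.02) and 16 of 34 in the cebpd comparison (-0.01). Of the transmitter genes, 21 of 45 and 16 of 44 were above 0, with medians of -0.005 and -0.04. Against marrow, 33 of 35 scaffold genes were higher in brain and 2 lower, and 29 of 47 transmitter genes were higher and 12 lower.

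In ablated brain the smallest p of the scaffold genes were those of dlg1, which anchors glutamate receptors and channels (-0.18, SE 0.05, adjusted p = 0.327), cnih2, an AMPA receptor auxiliary protein (0.11, SE 0.06), and nrxn3b, a presynaptic adhesion protein (-0.09, SE 0.05). Among the transmitter genes, abat, which breaks down GABA, reached 0.34 (SE 0.07, adjusted p = 0.0673), and the glutamine synthetase genes glulb and glula 0.23 (SE 0.06) and 0.12 (SE 0.06). In the cebpd mutant, shisa9b, an AMPA receptor auxiliary protein, stood at -0.64 (SE 0.16, adjusted p = 0.179), glula at -0.36 (SE 0.09, adjusted p = 0.158), the glycine transporter gene slc6a9 at -0.32 (SE 0.10), homer1b at -0.15 (SE 0.06), nrxn2a at 0.11 (SE 0.06) and tph1a, which makes serotonin and, in the pineal, the precursor of melatonin, at 0.76 (SE 0.21, adjusted p = 0.257). In ablated marrow shisa9b stood at -1.15 (SE 0.20, adjusted p = 0.0980), nrxn3b at -0.93 (SE 0.21), musk, the kinase of the neuromuscular junction, at 1.33 (SE 0.26), ache, which splits acetylcholine, at 1.30 (SE 0.33), entpd2a.1, which splits extracellular ATP, at 1.05 (SE 0.16, adjusted p = 0.0856) and mao, which breaks down monoamines, at -0.42 (SE 0.11). In the interaction the smallest p were those of nrxn3b (0.84, SE 0.13, adjusted p = 0.0547), homer1b (0.94, SE 0.26) and shisa9b (0.95, SE 0.27), and of the glutaminase gene glsa (-0.62, SE 0.15), mao (0.41, SE 0.10) and ache (-1.33, SE 0.34). None of these passed the threshold.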

How the data were processed

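For each of 14 RNA-seq libraries the authors deposited raw counts, given as integers for every gene symbol. Per the submitters' processing notes, which give 1 tool list for both assays, HTSeq 1.6.1, TopHat2 2.1.1 and Trim Galore (0.4.1, 0.6.4) are among the tools used, with danRer10 as the build. Annotation, strand setting and handling of multi-mapped reads were not given in the sources used here. Counts of overlapping, antisense or paralogous genes may be shared. The 5 summary lines per file stayed out of all fits, and reads outside any gene were 56.6% to 58.3% of brain and 37.4% to 41.5% of marrow reads. ATAC-seq data (10 libraries) were not used here.

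Each of 5 comparisons was fitted on all genes with edgeR 4.0.16 in R 4.3.3 (filterByExpr, TMM, glmQLFit, glmQLFTest, Benjamini-Hochberg, threshold 0.05), with the groups compared and no replicate block; the interaction used 8 libraries. SE came from the F statistic, and the script was tested on simulated data. The alternatives tried were DESeq2 1.42.0, scaling by RLE, testing without a filter, a minimum mean count of 50, a replicate block, omission of each library in turn, and 1 fit over 8 libraries. Where an omission left a group with 1 library, that library was assumed to vary like the other group. Replicate pairs differed beyond counting noise (chi-square per degree of freedom 2.37 to 61.0), so no library was counted as a duplicate.

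The members and lists were chosen with earlier results of these data known. Named were the members past the threshold in the 2 ablation fits, the cebpd fit or the interaction, otherwise the 5 with the smallest p per direction; all asic and chrm genes; the member with the most reads per class and tissue; members higher in marrow; and the 3 partner genes with the smallest p per list. Some results that this rule names are not reported here.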

Additional observations from a re-analysis of the deposited data

How the results depend on the processing

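The counts of members called in the brain ablation comparison (0 and 0) held under every alternative run. In the cebpd comparison the 2 members called lower were the same under RLE size factors, DESeq2, no filter, the stricter filter and the replicate block, and ran from 1 to 4 when single libraries were left out. In kidney marrow the fit over 8 libraries called 1 member higher and 5 lower, in place of 0 and 0. A mean count of at least 50 left 5 members higher in marrow than brain, in place of 9, since fewer members were tested. For the interaction, DESeq2 called 2 members, and leaving out single libraries gave 0 to 1. Leaving out single libraries moved the log2 fold change of asic1a in the mutant between -0.069 and 0.025, that of asic2 between -0.0076 and 0.112, and that of asic4b between -0.169 and 0.019. The cause of these moves was not tested.

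Same-numbered replicates did not deviate together in the cebpd experiment (correlations -0.07, -0.01 and -0.04, where no library correlated best with its own number). In the ablation experiment the correlation was 0.03 in brain and 0.27 in marrow. Each of these is a single value, since 2 replicates deviate from their mean as mirror images. The labels give no source animal, so the numbers were not taken as pairs in any comparison. Whether same-numbered brain or marrow libraries of the ablation experiment share an origin was not tested. With the replicate block, calls among members stayed at 0 and 0 in brain, 0 and 2 in the cebpd comparison, 0 and 0 in marrow, 75 and 9 between tissues and 0 in the interaction. Over all genes the block moved the calls from 35 and 21 to 163 and 195 in brain, from 4 and 11 to 22 and 44 in the cebpd comparison, from 0 and 0 to 433 and 165 in marrow, and from 5 and 29 to 61 and 196 in the interaction. Counts over all genes also moved under other settings. In brain, no filter gave 46 and 36, the fit over 8 libraries 0 and 1, and single libraries left out 25 to 99 and 12 to 101. In the cebpd comparison DESeq2 gave 11 and 33, no filter 14 and 27, and single libraries left out 2 to 12 and 4 to 77. In the interaction DESeq2 gave 99 and 165, and single libraries left out 0 to 115 and 0 to 198. With 2 or 3 libraries per group and 4377028 to 6280007 reads in the cebpd experiment, genes of few reads could not be resolved.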
